A study of Mus musculus with 11 samples.

Results

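The clustered protocadherins are cell surface adhesion proteins encoded by the alpha, beta and gamma gene clusters, which lie one after the other on chromosome 18 of the mouse. Each variable exon has its own promoter and encodes the outer, membrane-spanning and first inner part of a protein. In the alpha and gamma clusters it is spliced to constant exons shared by the whole cluster, whereas beta genes consist of a single exon. Neurons are known to choose a small set of the alpha, beta and gamma promoters, largely at random, so that neighbouring cells carry different combinations, and the proteins bind to identical partners on other cells and let the branches of a neuron recognise and avoid each other. The C-type isoforms (Pcdhac1, Pcdhac2, Pcdhgc3, Pcdhgc4 and Pcdhgc5) stand nearest to the constant exons and are known to be used more regularly than the others. Pcdhac2 is known for its role in the spacing of the axons of serotonergic (5-HT) neurons.

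Members were the protein-coding genes of the GENCODE annotation of mm9 whose symbol starts with Pcdha, Pcdhb or Pcdhg followed by a letter or digit. The rule found 24 of 22372 protein-coding genes, of which 2 were alpha, 21 beta and 1 gamma. The small numbers of alpha and gamma genes come from the annotation, which lists nearly all alpha isoforms under the symbol Pcdha11 (37089939 to 37347311 on chromosome 18, mm9) and the gamma isoforms under the symbol Pcdhgc5 (37833989 to 38001527). Members were therefore described by variable exon. The annotated transcripts held 40 variable exons (10 alpha, 21 beta and 9 gamma). A search of the mm9 sequence for open reading frames of at least 2000 bp found 61 in the interval, of which 58 were homologous to the annotated exons (14 alpha, 22 beta and 22 gamma). These counts equalled those of the alpha, beta and gamma genes listed by RefSeq, which classes Pcdhgb8 as a transcribed pseudogene. Pcdhgb8 had no peak in any library and is counted among the 58. Counts below use the 40 annotated exons, placed by their transcription start site (TSS), unless the 58 exons, placed by their start codon, are named. A promoter ran from 1 kb upstream to 100 bp downstream of that point.

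ATAC-seq, which marks open chromatin by the insertion of a transposase, was analysed for 3 libraries of midbrain dopaminergic (DA) neurons and 2 libraries of hindbrain 5-HT neurons, all from embryos at day 14.5. DA neurons were sorted by fluorescence from the ventral mesencephalon of TH-GFP embryos, which carry GFP driven by a rat Th promoter in a line kept on C57BL/6J. 5-HT neurons were sorted from the hindbrain of Mash1-CRE x ROSA YFP embryos, in which the label follows Cre expressed from the Mash1 gene. Fathers of both lines were mated to wild-type Swiss females, so that the embryos were of mixed background, and tissue of several embryos was pooled for a sort. Per the study's methods, fewer cells entered the 5-HT libraries than the DA libraries. Line, reporter, brain region and cell number differed together between the groups and cannot be told apart. A sorted population holds many cells, so that a weak peak in a few cells and one in all cells cannot be told apart, which bears on promoters chosen cell by cell. Mash1 is also known to act in precursors of other neurons, and the study names GABAergic neurons as a likely small part of the DA sort and reports expression of DA and GABAergic genes in the 5-HT sort.

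All libraries are scored over 1 common list of 131942 open chromatin regions, and a region without a peak in a library is scored 0 there. What the score measures is not stated, and the depth of the libraries is unknown, since peak lists hold no reads. The number of peaks differed between libraries, with 52861, 93055 and 94351 in DA libraries 1, 2 and 3 and 38772 and 22879 in 5-HT libraries 1 and 2. Scores were therefore ranked only within a library, as a percentile among its peaks and as a position counted from its highest score. Both depend on the length of the list, so neither was compared between libraries or groups. Counts were also made at an equal number of peaks, for which each library was reduced to its top 22879 by score. This number is the full list of 5-HT library 2, which therefore lost no peak, however weak.

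The labels were checked at the promoters of marker genes. All 11 DA markers had a promoter peak in each DA library, against 8 and 7 in 5-HT libraries 1 and 2. With each library reduced to an equal number of peaks, 9, 8 and 8 of them had one in the DA libraries and 6 and 7 in the 5-HT libraries. The promoter of Th, the first enzyme of dopamine synthesis, scored 9.91, 10.6 and 8.45 in the DA libraries and 0 in both 5-HT libraries. Of the 7 markers of 5-HT neurons, 5, 6 and 5 had a promoter peak in the DA libraries and 4 and 3 in the 5-HT libraries. This direction turned at an equal number of peaks, to 2, 1 and 1 in the DA libraries and 3 in each 5-HT library. The promoter of Tph2, which makes serotonin in neurons, had a peak in all 5 libraries (scores 9.91, 7.59 and 11.1 in DA neurons, 7.09 and 3.59 in 5-HT neurons). Fev, a transcription factor of 5-HT neurons, had a promoter peak in 5-HT library 1 alone (3.88), and Slc6a4, the serotonin transporter, had one in all 3 DA libraries (4.8, 6.56 and 3.76) and in neither 5-HT library. Of 3 GABAergic markers, 3 had a promoter peak in each DA library and in 5-HT library 1 and 2 in 5-HT library 2. When the number of peaks was equal, none of the 3 had one in a DA library and 2 had one in each 5-HT library. Of 2 glutamatergic markers, 1 had one in each library but 5-HT library 2. Of 4 markers of radial glia and astrocytes, 2, 3, 2, 2 and 2 had one in DA libraries 1, 2 and 3 and 5-HT libraries 1 and 2, and of 3 oligodendrocyte lineage markers 1, 2, 2, 2 and 2. Of 3 endothelial markers, 2 had one in every library but 5-HT library 2, which had none. The 2 pericyte markers had one only in DA libraries 2 (both) and 3 (1 of them). For these other cell types, an equal number of peaks left DA libraries 1, 2 and 3 and 5-HT libraries 1 and 2 with a peak at 1, 1, 1, 0 and 0 glutamatergic, 1, 0, 1, 1 and 2 glial, 1, 0, 1, 2 and 2 oligodendrocyte lineage and 0, 0, 0, 1 and 0 endothelial markers, and at no pericyte marker. None of the 3 microglial markers had one in any library. A promoter peak does not measure expression, and the part of other cell types in the results below was not tested.

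Most variable-exon promoters had no peak. Of the 40 annotated promoters, 29 (72.5%) had no peak in any library, against 46.4% of 29699 protein-coding promoters of the annotation. DA libraries 1, 2 and 3 had a peak at 4, 10 and 6 of the 40, and 5-HT libraries 1 and 2 at 5 and 4. Over all protein-coding promoters the shares with a peak were 48.1%, 52.1% and 50.4% in the DA libraries and 46.6% and 39.1% in the 5-HT libraries. The shares of the variable exons were 10.0%, 25.0%, 15%, 12.5% and 10.0% in the same order, below the background in each of the 5 libraries.

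The promoters that were open in every library were all C-type. A peak in all 3 DA libraries was present at 4 of the 40 promoters (10.0%; all protein-coding promoters, 47.3%), in both 5-HT libraries at 4 (10.0%; 38.3%) and in all 5 libraries at 4 (10.0%; 38.0%), and these were Pcdhac1, Pcdhac2, Pcdhgc3 and Pcdhgc4. No annotated variable-exon promoter had a peak in all 3 DA libraries and neither 5-HT library (background 2.00%), and none had one in both 5-HT libraries and no DA library (background 0.0236%). Without DA library 1, 1 promoter, that of Pcdhb1, had a peak in the other DA libraries and in neither 5-HT library. Of the 35 promoters that are not C-type, 0, 6 and 2 had a peak in DA libraries 1, 2 and 3 and 1 and 0 in 5-HT libraries 1 and 2.

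**Figure D1:**
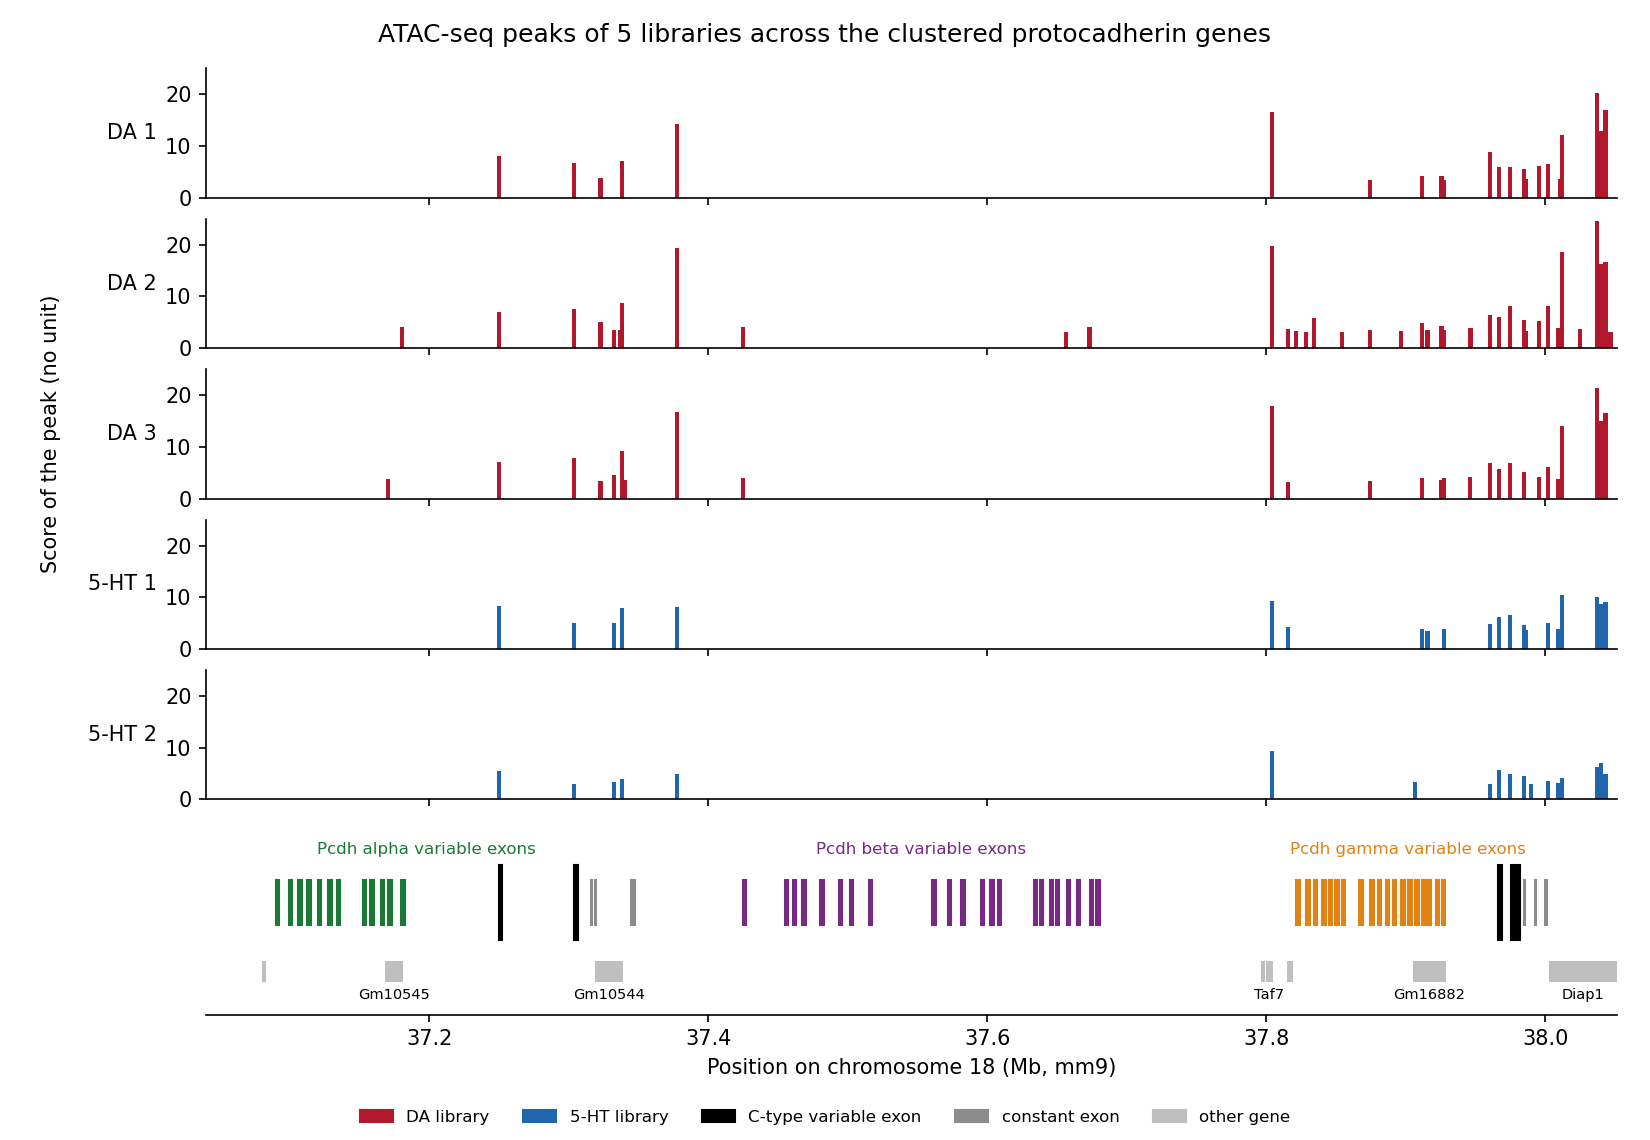
Map of the interval from 50 kb before to 50 kb after the clustered protocadherin genes, with position on chromosome 18 (mm9, in Mb) on the x axis and the score of each peak (no unit) on the y axis, 1 track per library; bars are centred on the peaks and drawn at a fixed width. The lowest track shows 58 variable exons, with C-type exons as tall black boxes, the constant exons in dark grey and other genes in light grey. Peaks shared by all 5 libraries stand at 4 C-type promoters, near the constant exons, between the clusters and in Diap1, and the stretch from Pcdhb2 to Pcdhb18 is empty.

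Among the C-type promoters, Pcdhac1 lay in a region at 37248784 to 37250446 and had scores of 8.17, 6.97 and 7.14 in DA libraries 1, 2 and 3 and of 8.40 and 5.44 in 5-HT libraries 1 and 2. These scores stood at percentiles 82.4, 77.2 and 83.5 among the peaks of the DA libraries and at 94.1 and 85.2 among those of the 5-HT libraries. The peak thus ranked in the upper part of every library. Pcdhac2, in a region at 37303004 to 37304521, had scores of 6.80, 7.56 and 7.90 in DA neurons and of 5.02 and 2.95 in 5-HT neurons. It stood at percentiles 71.8, 80.7 and 87.2 of the DA libraries and at 62.9 and 7.64 of the 5-HT libraries, and was among the weakest peaks that 5-HT library 2 lists.

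Pcdhgc3 lay in the broadest region of the interval (37965512 to 37968604, 3093 bp). It scored 6.00, 6.07 and 5.73 in DA neurons and 6.10 and 5.77 in 5-HT neurons. It stood above the median peak of every library, at percentiles 63.1, 70.6 and 73.7 for DA neurons and 78.8 and 87.9 for 5-HT neurons. Pcdhgc4 (37974051 to 37976020) had scores of 5.99, 8.20 and 6.96 in DA neurons and 6.67 and 4.87 in 5-HT neurons. It too stood above the median peak of every library, at percentiles 62.9, 83.8 and 82.5 for DA neurons and 84.2 and 78.8 for 5-HT neurons. Pcdhgc5, the last variable exon of the gamma cluster, had no peak in its promoter in any library, and its start codon lay 3309 bp from the nearest region present in all 5 libraries. The regions at the 4 open C-type promoters were 1518 to 3093 bp wide, against a median of 1090 bp for the 16856 regions that all 5 libraries share and 340 bp for all regions. They reached from the promoter into the exon, and the centre of the region lay inside the promoter at 1 of the 4, Pcdhac1.

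At an equal number of peaks (22879 per library), the C-type promoters were the only annotated ones with a peak. Pcdhac1, Pcdhac2 and Pcdhgc4 kept it in all 5 libraries, and Pcdhgc3 kept it in DA library 1 and both 5-HT libraries. The other 35 promoters had 0 peaks in every library at this number, where 35.4%, 35.5% and 34.1% of all protein-coding promoters had one in the DA libraries and 38.8% and 39.1% in the 5-HT libraries.

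**Figure D2:**
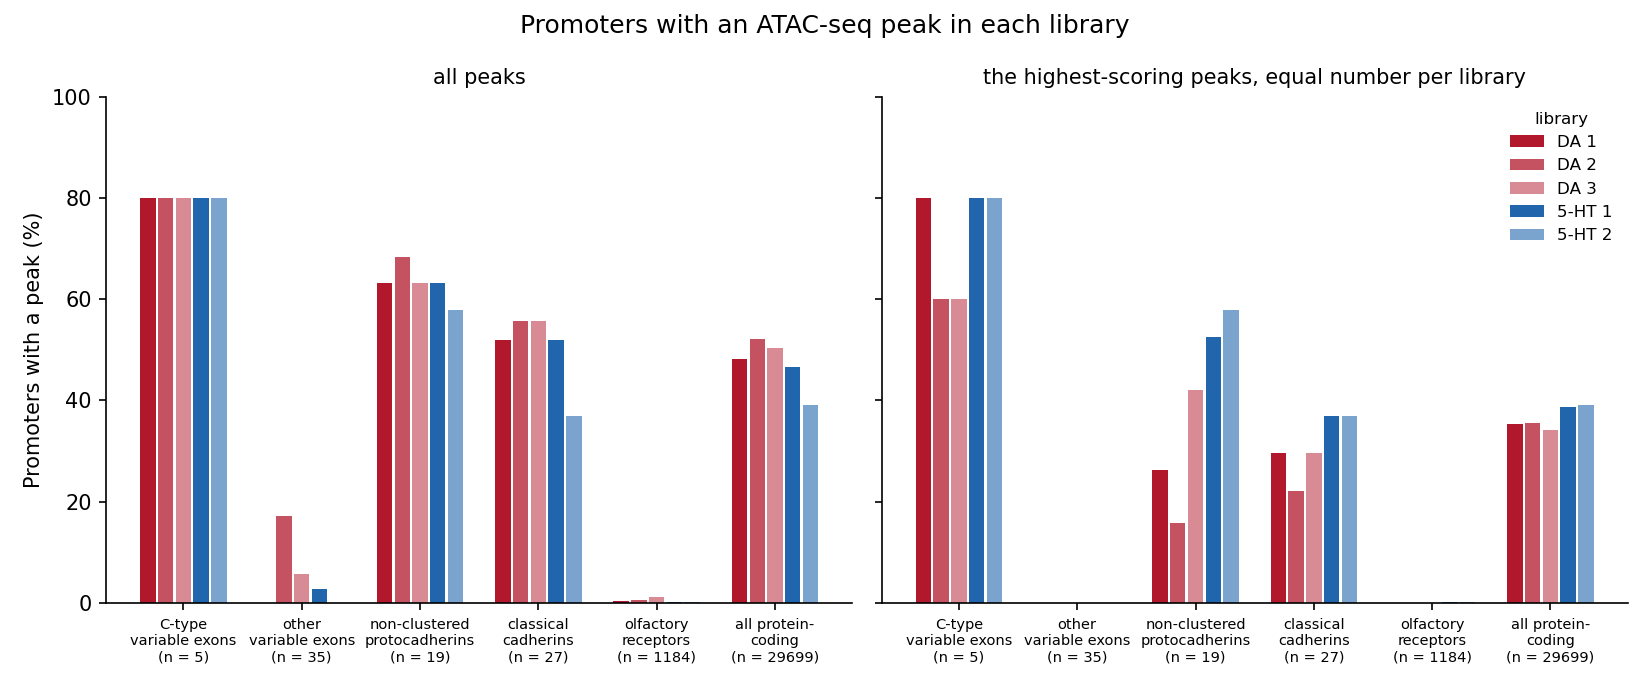
Share of promoters with an ATAC-seq peak (y axis, %) for C-type and other annotated variable exons, other cadherin families, olfactory receptors and all protein-coding genes (x axis, n promoters), 1 bar per library, with all peaks (left) and with an equal number, the top 22879 by score in each library (right). C-type promoters reach 80.0% in each library with all peaks, and the other variable exons lie between 0 and 17.1%, below the 39.1% to 52.1% of all protein-coding promoters.

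In the alpha cluster, the 12 variable exons before Pcdhac1 encode proteins that share 76.6% to 80.3% of their aligned residues with their best match. Matches were sought only among the other annotated variable exons, so a closer relative outside the annotation would be missed. The first of them, Pcdha1, had no peak in any library, and no region of the files lay between 36962797 and 37170277, a stretch of 207 kb that holds the starts of Pcdha1 to Pcdha10. This gap was longer than 99.6% of the 131921 gaps between neighbouring regions of the files, whose median was 9.30 kb. The only peak at an alpha promoter outside the C-type was that of Pcdha11 in DA library 3 (score 3.70, percentile 41.8), named after its value was seen. A further region, at 37180011 to 37180596, lay in the exon of Pcdha12 just past the promoter and was seen only in DA library 2 (4.10). It also covered the TSS of Gm10545, a gene on the opposite strand.

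Of the 21 annotated beta promoters, 18 (85.7%) had no peak in any library, as did 7 of 8 alpha promoters outside the C-type (87.5%), and no beta promoter had one in DA library 1 or in a 5-HT library. Pcdhb1, the first beta gene, had a peak in DA libraries 2 (4.13) and 3 (3.99). It is the most divergent of the cluster by its best match among the annotated exons (50.8% identity, against 70.2% to 89.3% for the others). Pcdhb19 (3.15) and Pcdhb21 (4.18) had one in DA library 2 alone and were named after their values were seen, and Pcdhb22, the last beta gene, had none. Between the region of Pcdhb1 and that of Pcdhb19 the files list no region over 232 kb, in which 17 beta genes start (Pcdhb2 to Pcdhb18), and this gap was longer than 99.7% of all gaps. The segment of the beta genes held 3 regions in 257 kb, or 1.17 per 100 kb, against 1.77 for the alpha variable exons and 5.00 per 100 kb over the genome covered by the files.

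In the gamma cluster, weak peaks stood at more promoters than in the alpha and beta clusters when all peaks of all libraries were counted. The annotation holds only 6 of its 19 variable exons outside the C-type, and 3, all in DA library 2, had a peak there, Pcdhga11 also in 5-HT library 1 (score 3.46 in both). The region at Pcdhga11 also overlapped a promoter of Gm16882, a gene on the opposite strand. All 19 could be placed by their start codon, and 10 of them had a peak in at least 1 library, against 1 of 12 in the alpha and 3 of 22 in the beta cluster. Over all protein-coding promoters, 15922 of 29699 had a peak in at least 1 library, a share close to that of the gamma cluster. Without DA library 2 these counts were 5 of 19, 1 of 12 and 1 of 22. When the number of peaks was equal, Pcdhga10 in 5-HT library 2 was the only promoter left outside the C-type in the 3 clusters. That library is not reduced at this number, so the peak stays there whatever its rank. By library and with all peaks, 3, 9 and 3 of the 19 had a peak in DA libraries 1, 2 and 3 and 2 and 1 in 5-HT libraries 1 and 2. These shares were 15.8%, 47.4% and 15.8% in the DA libraries and 10.5% and 5.26% in the 5-HT libraries. Over all protein-coding promoters they were 48.1%, 52.1% and 50.4% in the DA libraries and 46.6% and 39.1% in the 5-HT libraries. No gamma promoter outside the C-type had a peak in both 5-HT libraries.

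Pcdhga7 had scores of 3.45, 3.56 and 3.44 in the DA libraries and no peak in the 5-HT libraries. Pcdhga12, the last exon before the C-type, had 4.12, 4.24 and 3.59 in the DA libraries and none in the 5-HT libraries, in a region (37925448 to 37926050) that the promoter placed by the annotated TSS did not reach. A further region in the same exon (37927313 to 37928074), at the TSS of the opposite-strand gene Gm16882, had a peak in all 3 DA libraries (3.47, 3.60 and 3.96). It also had one in 5-HT library 1 (3.79), and was named after its values were seen. Pcdhgb7 had 4.12, 4.86 and 4.05 in DA neurons and 3.83 in 5-HT library 1. These 3 were the only promoters outside the C-type with a peak in all 3 DA libraries, and their scores were at percentiles 4.71 to 57.1 of their libraries. Pcdhga10 had a peak in 5-HT library 2 alone (3.47, percentile 40.1). Pcdhga1, the first gamma exon, had a peak in DA library 2 alone (3.40), and the highest score of a promoter outside the C-type was that of Pcdhga3 in the same library (5.92, percentile 69.3).

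Over the 58 exons, 7, 16 and 9 promoters had a peak in DA libraries 1, 2 and 3 and 6 and 5 in 5-HT libraries 1 and 2. No library had a peak at 40 (69.0%; all protein-coding promoters, 46.4%). Of 18 with a peak, 9 had it in a single library. Over all protein-coding promoters, 866 of the 15922 with a peak had it in a single library. A peak in all 3 DA libraries and neither 5-HT library was present at 2 of the 58 (3.45%; all protein-coding promoters, 2.00%), Pcdhga7 and Pcdhga12. The regions at promoters outside the C-type were 100 to 810 bp wide, with a median of 354 bp, and none overlapped the range of the 4 C-type regions.

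Counts of promoters with a peak were compared between the groups. Among the 40 annotated promoters they overlapped, and the mean was 6.67 ± 3.06 (SD, n = 3) in DA neurons and 4.5 ± 0.707 (SD, n = 2) in 5-HT neurons (two-sided exact permutation test, p = 0.6). Without DA library 2 the difference of 2.17 fell to 0.500, and without DA library 1 it was 3.50. Among the 58, each DA library had more than either 5-HT library, and the mean was 10.7 ± 4.73 (SD, n = 3) and 5.50 ± 0.707 (SD, n = 2; two-sided exact permutation test, p = 0.200), which is the smallest p that 3 against 2 libraries allow. Without DA library 2 the difference of 5.17 fell to 2.50. Over all protein-coding promoters each DA library likewise had a larger share with a peak than either 5-HT library. These shares were 48.1%, 52.1% and 50.4% in the DA libraries and 46.6% and 39.1% in the 5-HT libraries. With equal numbers of peaks the direction turned, to 3.33 ± 0.577 (SD, n = 3) in DA neurons and 4.00 ± 0 (SD, n = 2) in 5-HT neurons for the 40 (two-sided exact permutation test, p = 0.6). For the 58 it turned likewise, to 3.33 ± 0.577 (SD, n = 3) and 4.5 ± 0.707 (SD, n = 2; two-sided exact permutation test, p = 0.4). Over all protein-coding promoters it turned too, to 35.4%, 35.5% and 34.1% in the DA libraries and 38.8% and 39.1% in the 5-HT libraries.

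Outside promoters, the highest score of the interval was 20.2, 24.6 and 21.4 in DA libraries 1, 2 and 3. The highest at C-type promoters was 8.17, 8.20 and 7.90 in the same libraries. In 5-HT libraries 1 and 2 the highest score outside promoters was 10.5 and 7.07, against 8.40 and 5.77 at C-type promoters. From 50 kb before to 50 kb after the genes (37039939 to 38051527) the files list 44 regions, with a peak at 22, 40 and 28 of them in DA libraries 1, 2 and 3 and at 21 and 18 in 5-HT libraries 1 and 2. With equal numbers of peaks these counts were 15, 11, 12, 16 and 18, so that the 5-HT libraries then had more than each DA library. 5-HT library 2 loses no peak at this number. Over all protein-coding promoters the 5-HT libraries then also had the larger shares (38.8% and 39.1%, against 35.4%, 35.5% and 34.1% in the DA libraries). All 5 libraries shared 14 of the 44 (31.8%; all regions, 12.8%), all 3 DA libraries 21 (47.7%; all regions, 34.6%) and both 5-HT libraries 16 (36.4%; all regions, 14.3%). A peak in all 3 DA libraries and neither 5-HT library was present at 5 (11.4%; all regions, 13.4%), and none of the 44 had one in both 5-HT libraries and no DA library (all regions, 0.389%). Without 5-HT library 1, 2 regions had a peak in 5-HT library 2 and no DA library. A single library accounted for 16 regions (36.4%; all regions, 44.5%). At an equal number of peaks, 11 regions had a peak in all 3 DA libraries, 0 in these and neither 5-HT library, and 1 in both 5-HT libraries and no DA library. The shares of these classes over all regions were not computed at this number. No region lay in the 50 kb before the alpha cluster.

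Between the alpha constant exons and Pcdhb1, an interval known to hold an enhancer of the alpha genes, the files list 1 region, at 37376349 to 37378144. It lies outside genes, and its scores were 14.3, 19.3 and 16.8 in the DA libraries and 8.22 and 4.86 in the 5-HT libraries. It was peak 1148, 933 and 994 from the top in the DA libraries and 2567 and 4865 in the 5-HT libraries, and kept a peak in all 5 at an equal number of peaks. Whether the region is that enhancer was not tested.

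The alpha gene held 5 regions in the intron before its last constant exon. At 37337531 to 37338865, at the TSS of the opposite-strand gene Gm10544, all 5 libraries had a peak (7.11, 8.81 and 9.14 in DA neurons, 7.89 and 3.97 in 5-HT neurons). At 37331927 to 37332339, within Gm10544, both 5-HT libraries (4.95 and 3.31) and DA libraries 2 (3.58) and 3 (4.5) had one. A region at 37322475 to 37322859 had a peak in all 3 DA libraries (3.74, 4.98 and 3.45) and in neither 5-HT library. The last of these was chosen after its values were seen.

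Between the beta and gamma clusters lies Taf7, a gene for a subunit of the general transcription factor TFIID that all cells use. Its promoter region (37803498 to 37804229) had scores of 16.5, 19.7 and 17.9 in DA neurons and 9.25 and 9.31 in 5-HT neurons, at percentiles 96.3 to 99.2. The promoter of this housekeeping gene thus stood near the top of every library, within the same interval in which the neighbouring beta promoters had no peak in a 5-HT library.

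Around the gamma C-type exons and constant exons, open regions were dense. A region at 37960416 to 37960860, between Pcdhga12 and Pcdhgc3, had scores of 8.76, 6.45 and 6.80 in the DA libraries and 4.77 and 3.01 in the 5-HT libraries. A region at 37983620 to 37985503 covered the first gamma constant exon and had 5.59, 5.46 and 5.15 in DA neurons and 4.70 and 4.55 in 5-HT neurons. A region at 38001043 to 38002846 covered the end of the last constant exon and the 3′ end of the gene and had 6.44, 8.09 and 6.05 in DA neurons and 5.10 and 3.65 in 5-HT neurons. All of these had a peak in every library. At an equal number of peaks, the region at the 3′ end kept a peak in all 5 libraries, the first in 4 and the region at the first constant exon in 3. At 37995282 to 37996422, between the last constant exons, all 3 DA libraries had a peak (6.16, 5.24 and 4.20) and neither 5-HT library did, a region named after its values were seen. The segment of the gamma constant exons held 29.7 regions per 100 kb, against 9.75 for the gamma variable exons and 1.77 for the alpha variable exons.

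Past the gamma cluster, where enhancers of the beta and gamma genes are known to lie, the files list 8 regions within introns of Diap1, a gene for a formin that nucleates actin filaments. At 38036809 to 38037522 the scores were 20.2, 24.6 and 21.4 in DA neurons and 10.1 and 6.34 in 5-HT neurons, the highest of the whole interval in each DA library. It was peak 176, 252 and 323 from the top in the DA libraries and 873 and 1998 in the 5-HT libraries. At 38043121 to 38043477 the scores were 16.9, 16.7 and 16.6 in the DA libraries and 9.09 and 4.85 in the 5-HT libraries.

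At 38039379 to 38040266 the scores were 13.0, 16.3 and 15 in DA neurons and 8.73 and 7.07 in 5-HT neurons. At 38011716 to 38012368 they were 12.2, 18.5 and 14.1 in DA neurons and 10.5 and 4.24 in 5-HT neurons. All 4 of these regions had a peak in every library and ranked above all C-type promoters in each DA library and in 5-HT library 1. In 5-HT library 2, those at 38043121 (4.85) and 38011716 (4.24) stood below Pcdhac1 (5.44), Pcdhgc3 (5.77) and Pcdhgc4 (4.87). Regions outside promoters were chosen partly by their lowest DA score, which favours a high rank in the DA libraries. A weaker region at 38008933 to 38009653 had a peak in both 5-HT libraries (3.97 and 3.27) and in DA libraries 2 (3.85) and 3 (3.78). One at 38010503 to 38011040 had a peak in all 3 DA libraries (3.58, 3.17 and 3.81) and in neither 5-HT library, and was named after its values were seen. Whether any of these regions acts on the protocadherin genes was not tested.

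**Figure D3:**
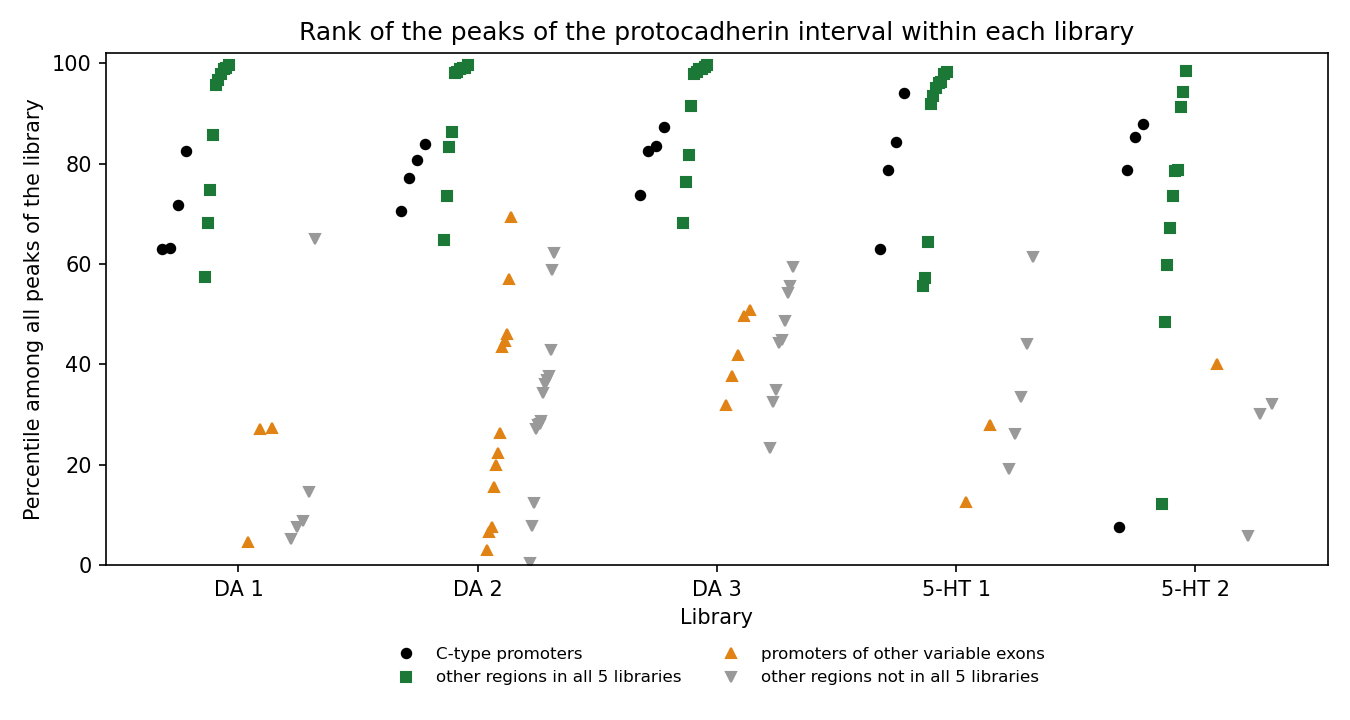
Percentile of each peak of the interval among all peaks of its own library (y axis, %), by library (x axis), with 1 point per peak, for C-type promoters, other regions present in all 5 libraries, promoters of other variable exons and the remaining regions. The promoters of variable exons outside the C-type lie at or below 69.3, and the highest points, up to 99.7, are regions shared by all 5 libraries that are not variable-exon promoters.

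C-type promoters had a median GC content of 50.6%, against 39.1% for the other 53 exons (36.0% alpha, 38.5% beta and 41.9% gamma) and 48.6% over all 29699 protein-coding promoters, placed by their TSS. The median of the C-type was thus near that of all promoters, and each of the other 53 lay below it. The ratio of observed to expected CpG had a median of 0.637 at C-type promoters (0.174 to 0.798) and 0.407 at the others (0.0979 to 0.855), and the ranges overlapped. The highest ratio of the 58 was that of Pcdhga11, and the median over all protein-coding promoters was 0.326. Among the C-type, Pcdhgc5, the only one with no peak, had the lowest ratio (0.174), and the other 4 had 0.475 to 0.798. GC content at Pcdhgc5 (50.1%) was close to that of Pcdhgc3 (50%). These are descriptions of 58 sequences and carry no test.

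The word CGCT, the core of an element conserved in protocadherin promoters, was searched on both strands in the 300 bp before the start codon and was present at 58 of 58 exons, with or without a peak. In the 300 bp before the annotated TSS it was found at 39 of 40 annotated exons (97.5%), against 59.4% of all 29699 protein-coding promoters. No such share was computed for the 300 bp before the start codon. The whole element was not searched for, so a hit does not show that it is present. Variable exons resemble one another, and words of 75 bp that occur more than once in the interval were counted. Of 58 promoters, 54 held no such word and the highest share was 4.09%, at Pcdhgb4. Within the exons the median share was 2.45% over all 58 and 10.2% over the 12 alpha exons outside the C-type, and the highest was 18.6%, at Pcdha6. Repeats elsewhere in the genome were not counted, and how reads were placed was not tested.

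The genes known to act on isoform choice and chromatin looping had open promoters in every library when all peaks were counted. Of 17 such genes, all 17 had a promoter peak in all 5 libraries, against 48.1% of 22232 protein-coding gene symbols (58.4% in all 3 DA libraries and 48.4% in both 5-HT libraries). At an equal number of peaks, 15, 15 and 14 of the 17 had one in DA libraries 1, 2 and 3 and 17 in each 5-HT library. Over the 22232 symbols these counts were 10019, 10077 and 9630 in the DA libraries and 10888 and 10924 in the 5-HT libraries. The promoter of Ctcf, which encodes the insulator protein that binds protocadherin promoters and enhancers, had scores of 6.84, 8.65 and 7.47 in the DA libraries and 4.71 and 3.69 in the 5-HT libraries. Rad21, a subunit of the cohesin ring, had 13.0, 12.8 and 14.4 in DA neurons and 8.74 and 8.20 in 5-HT neurons. Smchd1, a repressor that acts on the cluster, had 11.1, 13.5 and 13.6 in DA neurons and 6.84 and 4.79 in 5-HT neurons. Dnmt3b, the DNA methyltransferase known to methylate variable promoters, had 5.70, 6.85 and 5.71 in DA neurons and 4.83 and 2.88 in 5-HT neurons. A peak was thus present at these promoters in both cell types.

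Of 12 non-clustered protocadherin genes in the annotation, 10 (83.3%; all protein-coding genes, 48.1%) had a peak in all 5 libraries at 1 or more of their promoters. Counted by promoter, as the variable exons were, 11 of 19 (57.9%) had a peak in all 5 libraries with all peaks, against 38.0% of all protein-coding promoters. At an equal number of peaks 3 of 19 (15.8%) had one, against 29.3% of all protein-coding promoters. At an equal number the counts were 5, 3 and 8 of 19 in the DA libraries and 10 and 11 in the 5-HT libraries, so that in DA libraries 1 and 2 the share (26.3% and 15.8%) was below that of all protein-coding promoters. For Pcdh10, the scores were 6.43, 8.16 and 6.02 in DA neurons and 6.48 and 6.10 in 5-HT neurons, and Pcdh9 and Pcdh12 had no promoter peak. Of 19 classical cadherin genes, 10 had a promoter peak in all 5 libraries, as did 4 of 8 Fat, Dachsous and Celsr cadherins. Olfactory receptors, another large family of clustered genes from which a cell uses very few, had a promoter peak in all 5 libraries at 1 of 1113 genes (0.0898%), and 1094 (98.3%) had none in any library. Counted by promoter, 98.4% of 1184 had none in any library, against 72.5% of the 40 variable exons and 80.0% of the 35 outside the C-type. This was described by counts and not tested.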

How the data were processed

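ATAC-seq reads of each library were trimmed with Trimmomatic, aligned to mm9 with Bowtie2 and freed of duplicates with Picard by the authors, who called peaks per library with MACS2 and merged nearby peaks with BEDOPS; the versions and the threshold are not given in the sources used here. The deposited score has no stated scale, so presence (a score above 0) and the rank within a library were used. RNA-seq libraries were not used here. In 1 library, 1 misspelt chromosome name was corrected.

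Positions are 1-based, in mm9. A promoter had a peak where they shared at least 1 bp; first exons of a gene less than 1 kb apart counted as 1 promoter. Variable exons absent from the annotation were open reading frames of at least 2000 bp with a BLAST+ 2.17.0 match to an annotated exon (e-value up to 1e-50, at least 50% of the length). All 58 exons, annotated or not, were named by their distance from the 3′ end shared by the cluster, or from the end of the last beta gene. Distances were compared with RefSeq genes of a later build, with no coordinates converted. This gave the right name to 21 of 21 beta genes and to Pcdha3. No gamma name and no other alpha name could be checked, so those names are provisional. They include Pcdhga7, Pcdhgb7, Pcdhga10 and the C-type isoforms, whose class was read from the name. The placement of exons by their start codon was added after the files were seen. Group means of counts were compared by an exact permutation test over libraries. Named were the C-type isoforms, the first and last isoform of each cluster, promoters with a peak in a 5-HT library or all 3 DA libraries, regions present in both 5-HT libraries, and the 5 regions outside promoters whose lowest DA score was highest. Members and lists were chosen with earlier results of these data known. Python 3.11.15, NumPy 2.4.6 and pandas 2.3.3 were used, and overlaps were tested on simulated data.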

Additional observations from a re-analysis of the deposited data

How the results depend on the processing

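Depth and the threshold of the peak calls are unknown, and DA library 2, with 93055 peaks, held 12 of the 14 promoters outside the C-type that had a peak among the 58 exons, against 5 in DA library 3, with 94351 peaks. Groups of 3 and 2 libraries cannot reach a p below 0.200. No paired analysis was possible because the counts come from no model and the replicate numbers name separate sorts. Of 149 recomputed values, 120 stayed within 1.5 times the main count or, for the difference between groups, kept their direction; for those below the cause was not tested.

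At an equal number of peaks, promoters with a peak fell from 10 to 3 in DA library 2 and from 6 to 3 in DA library 3, regions in all 3 DA libraries from 21 to 11, those in all 3 DA and neither 5-HT library from 5 to 0, and those in both 5-HT and no DA library went from 0 to 1. The difference in promoters between DA and 5-HT libraries turned from 2.17 to -0.667; leaving out each library in turn gave 0.500 (without DA library 2) to 3.50 (without DA library 1). With only the 5′ end of each of the 24 genes as promoter, libraries DA 1, 2 and 3 and 5-HT 1 and 2 had a peak at 0, 4, 1, 0 and 0, and 0 genes had one in all 3 DA, both 5-HT or all 5 libraries. With the peak centre inside the promoter, the counts were 1, 6, 3, 1 and 1, with 1 promoter in all 3 DA, 1 in both 5-HT and 1 in all 5 libraries. With promoters from 2 kb upstream to 500 bp downstream, 1 promoter was in all 3 DA and neither 5-HT library. Over the 58 exons, a choice made after seeing the data, DA libraries 1 and 2 had 7 and 16, with 7 promoters in all 3 DA libraries and 2 in these alone. Their difference of 5.17 was 2.50 (without DA library 2) to 7 (without DA library 1) with a library left out, also chosen after seeing the data. Leaving out each library in turn gave 0 to 1 promoters in all DA and no 5-HT libraries (1 without DA library 1) and 0 to 2 regions in the 5-HT and no DA libraries (2 without 5-HT library 1).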
